A study of Mus musculus with 22 samples.

Results

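The genes described here encode the interferon-gamma receptor chains Ifngr1 and Ifngr2, the kinase Jak2 and the transcription factor Stat3, measured in mouse liver. They were taken by symbol from the platform's probe-to-gene table, using only probe sets that carry a single gene symbol, and they are 4 of the 8251 genes measured this way. Ifngr1 (probe set 100552_at) and Ifngr2 (160694_at) each had 1 probe set. Jak2 and Stat3 had 2 each, and the one with the higher mean over all arrays stood for the gene (101457_at for Jak2, 99099_at for Stat3), with the other (96488_at and 99100_at) given beside it.

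The study gave recombinant interferon-gamma to SOCS1-/-IFNg-/- mice, which lack the signalling suppressor SOCS1 and the cytokine itself, and to IFNg-/- mice, which lack only the cytokine. By genotype no group could make interferon-gamma of its own. The injected protein, 4 µg in 100 µl into the peritoneum, was the single dose labelled, so change with dose could not be examined. Livers were collected 0.5, 1, 2, 4, 12, 16, 24 and 48 h after interferon-gamma, 4 and 12 h after 100 µl of PBS, and from untreated mice. Each of the 11 conditions has 1 array per genotype, 22 in all, so a genotype at a time has no replicate. The labels do not give the age of the mice, or whether a sample is 1 liver or a pool. Whole liver was assayed, and fewer cells of a type and less RNA per cell cannot be told apart in it.

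As background, interferon-gamma binds Ifngr1, which carries Jak1, and Ifngr2, which carries Jak2. The kinases activate each other and phosphorylate the receptor tail, and the signal passes on through STAT proteins. SOCS1 blocks the kinases and is itself a target of the pathway. Stat3 acts mainly below gp130 (Il6st), the shared receptor chain of the interleukin-6 family, and in hepatocytes it drives acute phase genes.

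Neither receptor chain was called at any time or between genotypes, whereas Jak2 and Stat3 rose at 4 h. Against the 6 control arrays, Jak2 was 1.48-fold higher at 4 h (95% interval 1.21 to 1.81) and Stat3 1.61-fold (1.38 to 1.87), both as the mean of the 2 genotypes. In that fit the 2 genotypes stand in for replicates, so the spread includes genotype differences that vary by condition. Against its own controls Jak2 was 1.92-fold higher at 4 h in SOCS1-/-IFNg-/- liver and 1.14-fold in IFNg-/- liver, both outside its interval. At 2 h Jak2 was 1.35-fold higher in SOCS1-/-IFNg-/- liver and 1.49-fold in IFNg-/- liver. Its fitted 2 h difference, 0.50 on the log2 scale, was not called (limma adjusted p = 0.0841). On the single 4 h array of each genotype, Jak2 was 5.87 in SOCS1-/-IFNg-/- liver and 5.09 in IFNg-/- liver. That gap was larger than in the other pairs but has no replicate, the dimmer second Jak2 probe set did not show it, and the SOCS1-/-IFNg-/- array at 4 h correlated least with the other arrays (median r = 0.979). Without that array the 4 h difference of Jak2 was 0.15 on the log2 scale, against 0.57 with it, and was not called. That of Stat3 was 0.53 without the array, against 0.68 with it, and was not called. For Stat3 the IFNg-/- array at 4 h stood 1.47-fold above its own controls together. Against the PBS array of 4 h alone it stood 1.30-fold higher.

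The promoters are shown because Jak2 and Stat3 were called at 4 h, and Ifngr1 and Ifngr2 at no time. The sequences are RefSeq's for build GRCm38.p6, matched by symbol for all 4 genes. Each line gives bases 180 to 61 upstream of the annotated start, 120 bases on the gene's own strand, 5′ to 3′. The 54 bases next to the Stat3 start lie inside the RefSeq extent of that gene and are not shown. Capitals mark any match within the bases shown, on either strand, to the 4 motifs searched.
Ifngr1, chr10:19591769-19591888, + strand: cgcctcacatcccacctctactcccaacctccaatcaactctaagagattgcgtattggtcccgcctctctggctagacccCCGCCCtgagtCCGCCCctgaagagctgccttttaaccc
Ifngr2, chr16:91546879-91546998, + strand: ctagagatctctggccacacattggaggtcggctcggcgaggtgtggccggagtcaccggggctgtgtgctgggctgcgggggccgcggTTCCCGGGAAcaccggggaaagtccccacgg
Jak2, chr19:29251623-29251742, + strand: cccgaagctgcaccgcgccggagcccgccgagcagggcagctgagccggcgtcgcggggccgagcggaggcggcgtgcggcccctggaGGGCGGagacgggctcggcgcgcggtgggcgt
Stat3, chr11:100939601-100939720, - strand: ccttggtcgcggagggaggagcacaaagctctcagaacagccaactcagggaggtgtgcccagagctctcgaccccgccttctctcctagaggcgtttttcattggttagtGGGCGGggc

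The search covered the 250 bases before each start. The GC box GGGCGG occurred in all 4 promoters and in 32.7% of the 32851 promoters in the table. Those of Ifngr2 lie between 57 and 20 bases upstream, and Jak2 has another from 242 to 237, all outside the lines shown. The STAT half-site pair with a 3-base gap, TTCNNNGAA, had no match in the 4 windows and occurred in 7.02% of all promoters. The 4-base gap form, TTCNNNNGAA, matched once, in Ifngr2 from 91 to 82 bases upstream as TTCCCGGGAA, and occurred in 5.85%. The interferon response core GAAANNGAAA had no match here and occurred in 2.98%. A match describes letters in these windows only, and the one STAT-type match lies in a gene that was not called at any time.

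**Figure D1:**
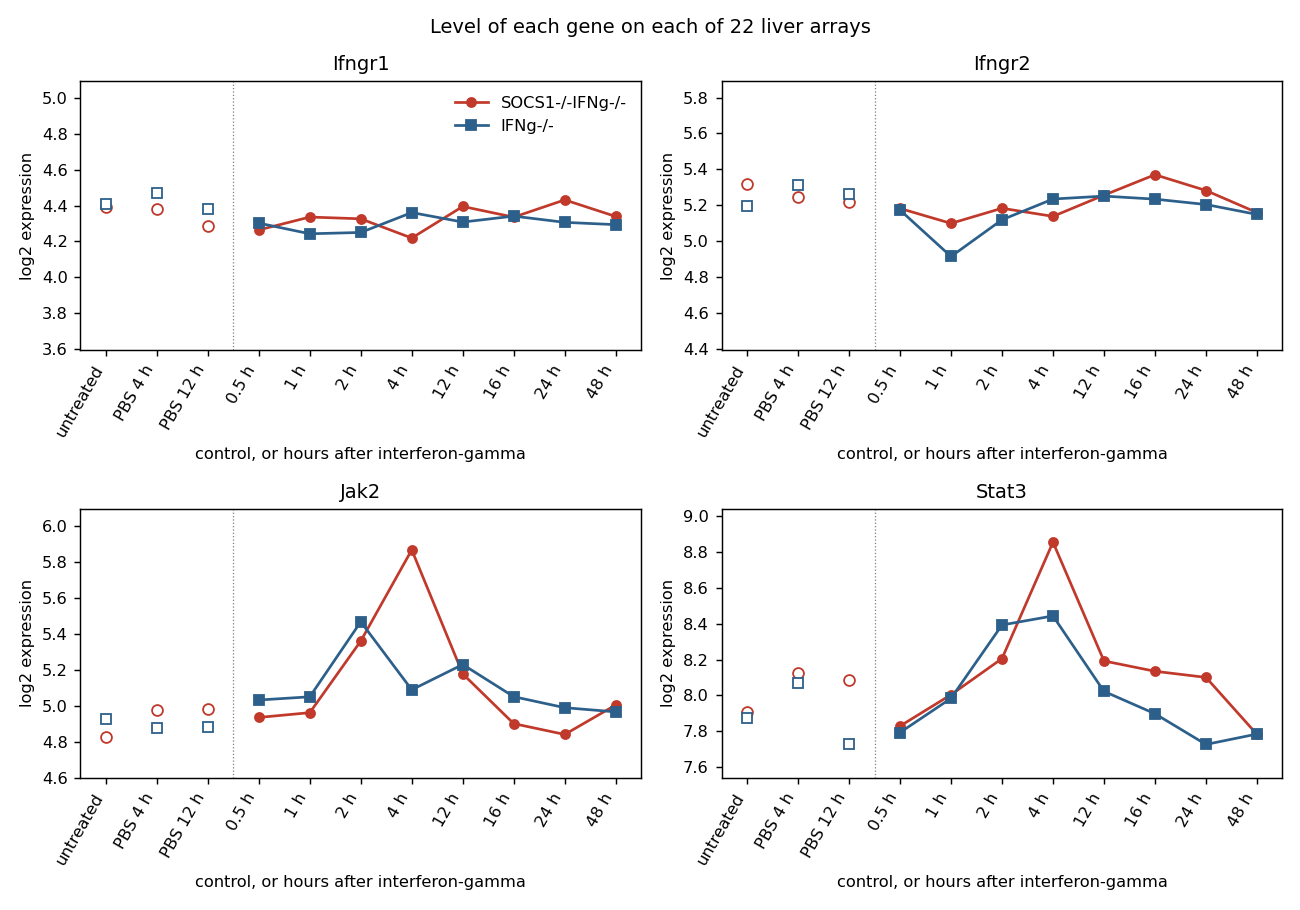
Log2 expression (y axis) of the 4 genes on each of the 22 arrays, with untreated and PBS controls as open symbols at the left and hours after interferon-gamma to the right (x axis, not to scale); red circles are SOCS1-/-IFNg-/- and blue squares IFNg-/-. Every panel spans the same height, 1.5 log2 units. Ifngr1 keeps within 0.25 log2 units, Ifngr2 is lowest at 1 h, and Jak2 and Stat3 peak at 2 to 4 h.

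Levels are log2 expression as the authors deposited them. A difference is on the same log2 scale and is given ± its standard error (SE) in limma. A gene is called where its Benjamini-Hochberg adjusted p over all 8251 genes is under 0.05. The response at a time is the mean of both genotypes minus the mean of the 6 control arrays, so all times share those controls. As background for the members, limma called 0% of all genes at 0.5 h (0 genes, with 478 at an unadjusted p under 0.05), 0.158% at 1 h, and 1.66% and 5.03% at 2 and 4 h. It called 1.42%, 0.448%, 0.17% and 0.0121% at 12, 16, 24 and 48 h. The moderated F test of any change over the 8 times called 5.1%. Statements below that arrays lay above or below all controls describe levels only. The share of all genes that did so is not given here.

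Ifngr1, the ligand-binding chain, kept within a range of 0.25 log2 units over all 22 arrays. In SOCS1-/-IFNg-/- liver its lowest, median and highest levels were 4.22, 4.34 and 4.43, and in IFNg-/- liver 4.24, 4.31 and 4.47. The 2 genotypes overlapped almost completely. Its 8 responses by time lay between -0.10 and -0.02, all slightly below the controls, and none was called (F test adjusted p = 0.857). Over the 8 times the 95% intervals together reached from -0.24 to 0.12, so smaller changes than these could not be resolved.

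The signal of Ifngr1 was low, with its mean at percentile 25.1 of all probe sets. Its SD over the arrays was 0.064, and 0.97% of genes had a smaller one; the median SD over all genes was 0.118. Dim probe sets can compress true change, and whether that happened here was not tested. In IFNg-/- liver the early times averaged -0.13 ± 0.05 SE against that genotype's own controls (unadjusted p = 0.0173, adjusted p = 0.999), and the late times -0.11 ± 0.05 SE (adjusted p = 0.948). In SOCS1-/-IFNg-/- liver the early and late values were -0.07 ± 0.05 SE and 0.02 ± 0.05 SE.

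Ifngr2, the chain that brings Jak2 to the receptor, was lowest at 1 h on the arrays of either genotype. It was 5.10 in SOCS1-/-IFNg-/- liver and 4.91 in IFNg-/- liver at 1 h, against 5.22 to 5.32 in SOCS1-/-IFNg-/- controls and 5.19 to 5.31 in IFNg-/- controls. Both interferon arrays lay below all 6 controls at 0.5, 1, 2 and 48 h. The fitted difference at 1 h was -0.25 ± 0.07 SE (unadjusted p = 0.00183), and it did not pass adjustment (adjusted p = 0.308).

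Over the other 7 times Ifngr2 differed from the controls by -0.11 to 0.04, and the F test had an adjusted p of 0.269. Its SD over arrays was 0.094, smaller than the median gene's 0.118. The highest array was SOCS1-/-IFNg-/- liver at 16 h, with 5.37. At 4 h it was 5.14 in SOCS1-/-IFNg-/- liver and 5.23 in IFNg-/- liver, a difference from the controls of -0.07 ± 0.07 SE (adjusted p = 0.655).

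Jak2, the kinase bound to Ifngr2, differed most between the genotypes at 4 h, on 1 array each. In SOCS1-/-IFNg-/- liver it was 4.94, 4.96, 5.36 and 5.87 at 0.5, 1, 2 and 4 h, then 5.18, 4.90, 4.84 and 5.0 at 12, 16, 24 and 48 h, against 4.98 and 4.98 after PBS and 4.83 untreated. In IFNg-/- liver it was 5.03, 5.05, 5.47 and 5.09 at 0.5, 1, 2 and 4 h, then 5.23, 5.05, 4.99 and 4.97 at 12, 16, 24 and 48 h, against 4.87 and 4.88 after PBS and 4.92 untreated. Both genotypes were above all 6 controls at 2, 4 and 12 h, and only the SOCS1-/-IFNg-/- array was higher at 4 h than at 2 h.

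Measured against the 3 controls of its own genotype, Jak2 was 1.35-fold higher at 2 h in SOCS1-/-IFNg-/- liver and 1.49-fold in IFNg-/- liver. At 4 h it was 1.92-fold higher in SOCS1-/-IFNg-/- liver and 1.14-fold in IFNg-/- liver, each from a single array. At 12 h it was 1.19-fold higher in SOCS1-/-IFNg-/- liver and 1.26-fold in IFNg-/- liver. From 16 h on both genotypes lay within 0.16 log2 units of their own controls.

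In both genotypes together Jak2 differed from the controls by 0.50 ± 0.14 SE at 2 h (adjusted p = 0.0841), 0.57 ± 0.14 SE at 4 h (adjusted p = 0.0257) and 0.29 ± 0.14 SE at 12 h (adjusted p = 0.373). Only the 4 h rise was called. It rested on the SOCS1-/-IFNg-/- array: without that array the 4 h difference was 0.15 (adjusted p = 0.543). It was also lost without the untreated pair (adjusted p = 0.0641) and without both PBS 12 h arrays (adjusted p = 0.0508). With the 4 h pair left out, the unchanged difference at 2 h was called (adjusted p = 0.000303), and so was that at 12 h (adjusted p = 0.0364).

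Stat3 rose in both genotypes and was highest at 4 h in each. In SOCS1-/-IFNg-/- liver it was 7.83, 8.00, 8.21 and 8.85 at 0.5, 1, 2 and 4 h, then 8.19, 8.13, 8.10 and 7.78 at 12, 16, 24 and 48 h, against 8.13 and 8.09 after PBS and 7.91 untreated. In IFNg-/- liver it was 7.79, 7.98, 8.39 and 8.44 at 0.5, 1, 2 and 4 h, then 8.02, 7.90, 7.73 and 7.78 at 12, 16, 24 and 48 h, against 8.07 and 7.73 after PBS and 7.88 untreated. Both genotypes exceeded all 6 controls at 2 and 4 h.

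Against its own controls Stat3 was 1.76-fold higher at 4 h in SOCS1-/-IFNg-/- liver and 1.47-fold in IFNg-/- liver. In both together the difference was 0.33 ± 0.10 SE at 2 h (adjusted p = 0.146) and 0.68 ± 0.10 SE at 4 h (adjusted p = 0.00141). The F test over the 8 times was called (adjusted p = 0.00819), and without the 4 h pair it was not (adjusted p = 0.115). Without the SOCS1-/-IFNg-/- array of 4 h the difference at that time was 0.53 (adjusted p = 0.0847).

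At 48 h Stat3 was the lowest of the 11 conditions, -0.18 ± 0.10 SE against the controls (adjusted p = 0.843). Ranked by the mean of both genotypes, the order of Stat3 levels began with 4 h, 2 h and 12 h. The step between 4 h and 2 h was 0.35, above the 95% half-width of a difference between 2 conditions, 0.27. No other neighbouring step exceeded that half-width. In SOCS1-/-IFNg-/- liver Stat3 was 8.85 at 4 h and 8.21 at 2 h, and in IFNg-/- liver 8.44 and 8.39. The step thus lay mostly in SOCS1-/-IFNg-/- liver, on 1 array per time. The half-width makes no allowance for ranking the conditions first. For Jak2 the order also began with 4 h, 2 h and 12 h, but no neighbouring step exceeded its half-width of 0.35. For the receptor chains no neighbouring step exceeded the half-width of 0.17 either.

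**Figure D2:**
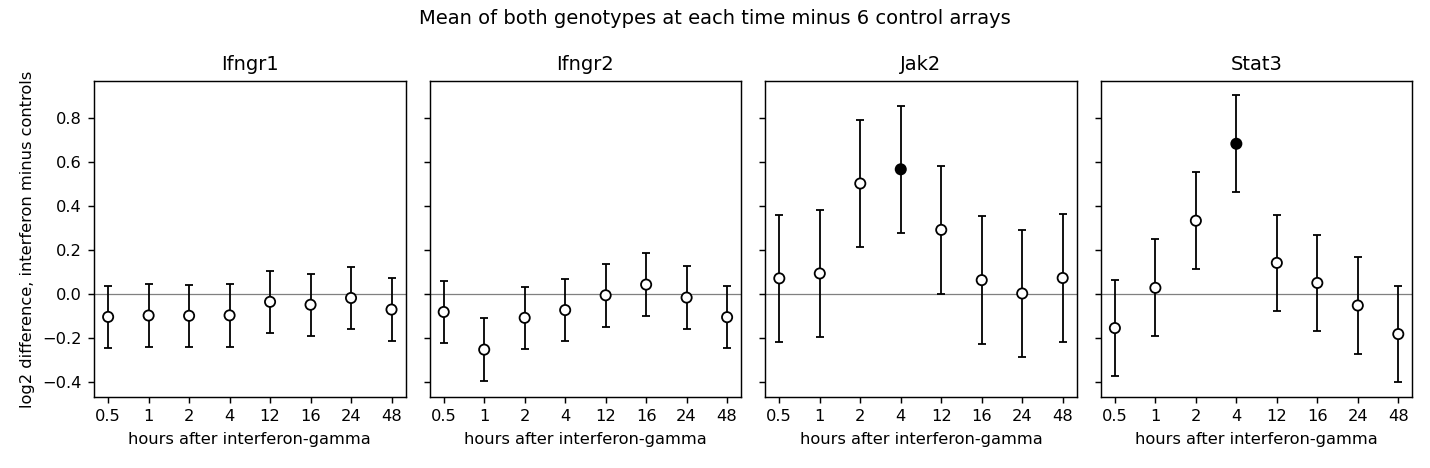
Log2 difference (y axis) between the mean of both genotypes at each time after interferon-gamma (x axis, hours, not to scale) and the mean of the 6 control arrays, with 95% intervals from limma as bars; filled points passed an adjusted p of 0.05 over all genes. The filled points are Jak2 and Stat3 at 4 h, and every Ifngr1 interval covers 0.

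Livers taken after PBS exist at 4 and 12 h, and they separate interferon-gamma from injection at those times only. At 4 h Stat3 was 8.85 after interferon-gamma and 8.13 after PBS in SOCS1-/-IFNg-/- liver, and 8.44 and 8.07 in IFNg-/- liver. The mean difference, 0.55 ± 0.13 SE, was called (adjusted p = 0.0454), where 1.36% of all genes were. The adjusted p lay close to the threshold and rose above it when any 1 of 7 other condition pairs was left out, to at most 0.0617.

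Jak2 at 4 h was 5.87 after interferon-gamma and 4.98 after PBS in SOCS1-/-IFNg-/- liver, and 5.09 and 4.87 in IFNg-/- liver. Its mean difference of 0.55 ± 0.17 SE was of the same size as that of Stat3 and was not called (adjusted p = 0.138). Ifngr1 and Ifngr2 differed from PBS at 4 h by -0.14 ± 0.08 SE and -0.09 ± 0.08 SE. At 12 h none of the 4 genes was called against PBS at 12 h, where 0.109% of all genes were, and their differences lay between 0.01 and 0.27. The injection itself moved none of them past the threshold: PBS minus untreated was 0.11 ± 0.11 SE for Stat3 (adjusted p = 0.719), the largest of the 4, beside 0.0242% of all genes called.

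The other probe sets gave a split answer. The second Stat3 probe set showed the same course with a larger rise. At 4 h it was 8.85 in SOCS1-/-IFNg-/- liver and 8.31 in IFNg-/- liver, against 7.52 to 7.78 in SOCS1-/-IFNg-/- controls and 7.31 to 7.71 in IFNg-/- controls. It rose by 1.02 ± 0.11 SE, or 2.03-fold (adjusted p = 0.000157 over all single-symbol probe sets), and by 0.83 ± 0.14 SE against PBS at 4 h (adjusted p = 0.00702).

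The second Jak2 probe set did not share the course of the first. It lay between 2.56 and 3.02 on all arrays, at percentile 6.01 of all probe sets, and was 2.90 on both arrays at 4 h. Its 4 h difference was 0.14 ± 0.09 SE (adjusted p = 0.476), and no interferon array left the range of the 6 controls. The Jak2 result therefore comes from 1 probe set, itself at percentile 37.1, and where the 2 probe sets lie in the transcript was not examined.

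**Figure D3:**
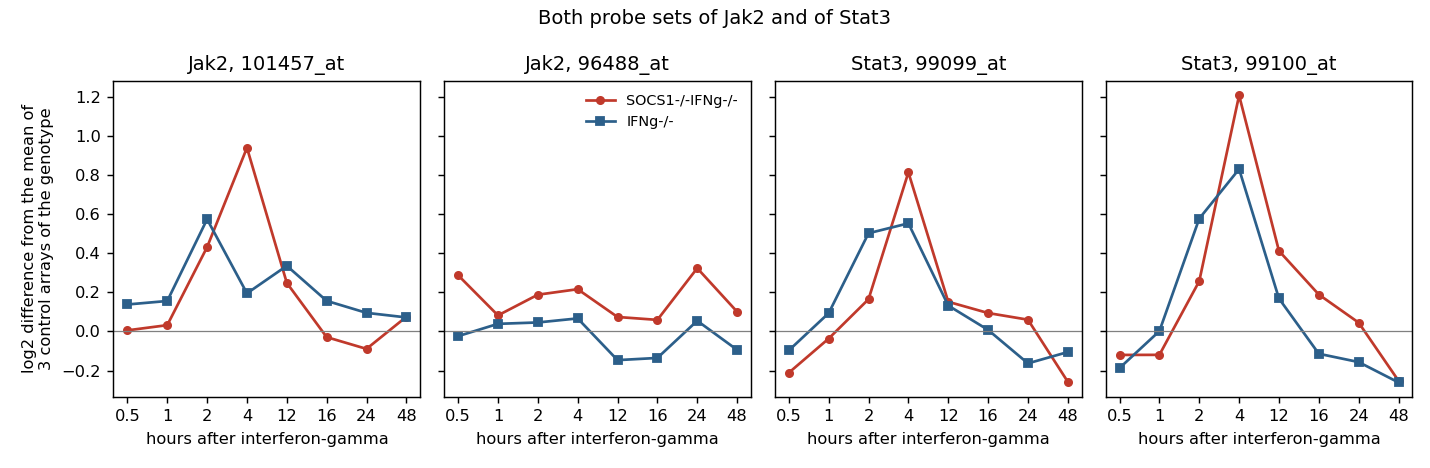
Log2 difference (y axis) of each interferon-gamma array from the mean of the 3 control arrays of its genotype, by hours after injection (x axis, not to scale), for both probe sets of Jak2 and of Stat3; red circles are SOCS1-/-IFNg-/- and blue squares IFNg-/-. Both Stat3 probe sets peak at 4 h, up to 1.21, while the dim Jak2 probe set 96488_at shows no peak at 2 or 4 h.

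The genotype question was asked first by phase, within each genotype, with early times of 0.5 to 4 h and late times of 12 to 48 h standing in for replicates. None of the 4 genes was called in these fits. Early SOCS1-/-IFNg-/- livers gave 0.0121% of all genes called and late ones 0% (0 genes, 775 at an unadjusted p under 0.05). In IFNg-/- livers both were 0% (0 genes, with 232 early and 370 late at an unadjusted p under 0.05). The early response of Jak2 was 0.35 ± 0.16 SE in SOCS1-/-IFNg-/- liver (adjusted p = 0.738) and 0.27 ± 0.16 SE in IFNg-/- liver (adjusted p = 0.999). That of Stat3 was 0.18 ± 0.19 SE in SOCS1-/-IFNg-/- liver and 0.26 ± 0.19 SE in IFNg-/- liver. These spreads include the change between times.

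The genotypes were then compared within each of the 11 conditions. Stat3 was higher in SOCS1-/-IFNg-/- liver in 9 of 11 pairs, most at 4 h (0.41), 24 h (0.37) and PBS 12 h (0.36), and lower by 0.19 at 2 h. Over all pairs the difference was 0.14 ± 0.06 SE with an unadjusted p of 0.0275, and it failed adjustment (adjusted p = 0.522; 0.218% of genes were called). The second Stat3 probe set was higher in 10 of 11 pairs, with 0.22 ± 0.06 SE (adjusted p = 0.192).

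Ifngr1 was higher in SOCS1-/-IFNg-/- liver in 5 of 11 pairs and Ifngr2 in 8, with mean differences of -0.00 ± 0.03 SE and 0.03 ± 0.04 SE. Their 95% intervals were -0.07 to 0.07 and -0.04 to 0.11, which describe the mean genotype difference of these probe sets on these arrays. Whether SOCS1 loss itself has a smaller or larger effect was not tested. In the controls alone none of the 4 was called (0.0121% of genes were). None differed in its early minus control or late minus control genotype difference, where limma called 0% of genes in each (0 genes, with 287 and 938 at an unadjusted p under 0.05). The Stat3 values there were -0.08 ± 0.14 SE early and 0.04 ± 0.14 SE late.

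The 4 h pair was then set against the other 10 pairs. It was chosen with earlier results of these data known, in which the 4 h pair was reported to differ. Its test is therefore not independent of that choice. Jak2 was 0.78 higher in SOCS1-/-IFNg-/- liver at 4 h, whereas its other 10 pair differences lay between -0.15 and 0.10. The difference of that pair from the others was 0.83 ± 0.12 SE, or 1.78-fold (95% interval 1.48 to 2.14), and was called (adjusted p = 0.00112), beside 3.36% of all genes. The pair holds 1 array per genotype, so this compares 2 livers or pools.

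Stat3 at 4 h gave 0.30 ± 0.17 SE in the same test (adjusted p = 0.34), and its other 10 pair differences lay between -0.19 and 0.37. Ifngr1 and Ifngr2 gave -0.16 ± 0.11 SE and -0.15 ± 0.12 SE (adjusted p = 0.431 and 0.48). The second Jak2 probe set gave 0.01 ± 0.16 SE. At 2 h, where Jak2 was high in both genotypes, its pair difference was -0.11.

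**Figure D4:**
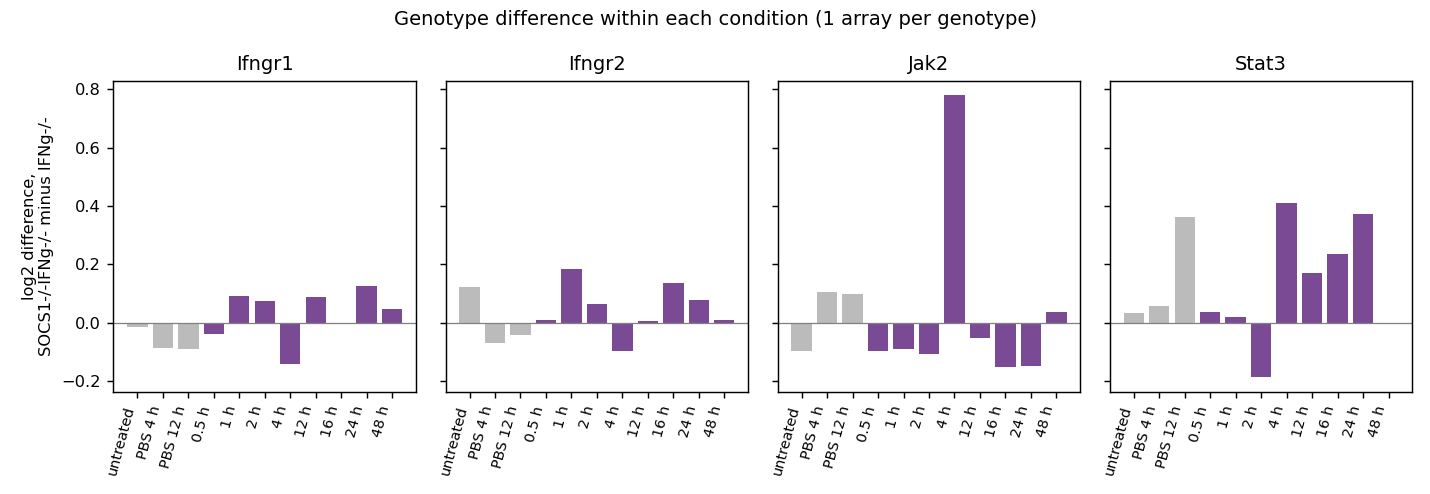
Log2 difference (y axis), SOCS1-/-IFNg-/- minus IFNg-/-, of each gene within each condition (x axis: controls in grey, hours after interferon-gamma in purple), 1 array per genotype. The Jak2 difference of 0.78 at 4 h stands apart from its other 10, and most Stat3 bars lie above 0.

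The SOCS1-/-IFNg-/- array at 4 h also stood apart as a whole. Its median Pearson r with the other arrays was 0.979, the lowest of the 22, and those of the others lay between 0.987 and 0.994. Its difference between the 3′ and 5′ Actb control probe sets, a sign of RNA length, was 0.326, also the lowest; the others ranged from 0.473 to 1.56. The same measure for Gapdh, 0.466, did not set it apart, the others ranging from 0.373 to 1.16. The mean log2 level of 11 measured macrophage and Kupffer cell markers of 12 listed was 6.82 there and 6.68 in IFNg-/- liver at 4 h, against 6.58 to 6.72 in SOCS1-/-IFNg-/- controls and 6.48 to 6.64 in IFNg-/- controls. Outside the 4 h interferon pair this mean reached 6.77 in SOCS1-/-IFNg-/- liver and 6.81 in IFNg-/- liver. Of those markers C1qb and Cd14 were called at 4 h, where 5.03% of all genes were, and none in the 4 h pair test. The 8 measured hepatocyte markers of 10 listed averaged 11.81 in SOCS1-/-IFNg-/- liver at 4 h and 11.77 in IFNg-/- liver at 4 h. The controls had 11.9 to 12.0 in SOCS1-/-IFNg-/- liver and 11.9 in IFNg-/- liver. Outside the 4 h interferon pair this mean ranged from 11.75 to 12.01 in SOCS1-/-IFNg-/- liver and from 11.80 to 12.00 in IFNg-/- liver. Fgb rose and Tat fell at 4 h. These hepatocyte levels stood far above the upper quartile of all values, 6.90, as the liver label implies. Of the neutrophil, T cell, NK cell, B cell, endothelial, stellate and bile duct marker lists, no member was called at 4 h. The part of these in the Jak2 and Stat3 values was not tested.

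Socs1 itself was 6.57 to 7.02 on all SOCS1-/-IFNg-/- arrays, and in IFNg-/- liver it was 9.21 at 2 h and 6.89 at 4 h. Irf1, a transcription factor that interferon-gamma induces, differed between genotypes in the 4 h pair by 2.74 ± 0.28 SE more than in the other pairs (adjusted p = 4.2e-05).

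Among the other Janus kinases and STATs, 7 of 9 listed genes were measured. At 4 h, where 5.03% of all genes were called, 1 was called, Jak1. Jak1, the kinase bound to Ifngr1, was 8.18 at 4 h in SOCS1-/-IFNg-/- liver and 8.04 in IFNg-/- liver, against 7.61 to 7.82 in SOCS1-/-IFNg-/- controls and 7.64 to 7.72 in IFNg-/- controls. Both arrays lay above every control. Jak1 rose by 0.41 ± 0.07 SE at 4 h (adjusted p = 0.00424) and by 0.39 ± 0.09 SE against PBS at 4 h (adjusted p = 0.0431). Its genotype difference in the 4 h pair was not called, 0.06 ± 0.13 SE.

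Tyk2, which serves type I interferon and interleukin-12 receptors, gave 0.04 ± 0.08 SE at 4 h (adjusted p = 0.85). Stat6, the interleukin-4 signal transducer, rose at 12 h by 0.47 ± 0.11 SE (adjusted p = 0.0442) and gave 0.09 ± 0.11 SE at 4 h. The median of the 7 at 4 h was 0.06, against -0.03 over all genes.

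Of 22 other cytokine receptor chains listed, 16 were measured. At 4 h, where 5.03% of all genes were called, 3 rose and 0 fell. Osmr, the oncostatin M receptor, rose by 1.26 ± 0.21 SE (adjusted p = 0.00275), Il6st, or gp130, by 0.90 ± 0.14 SE (adjusted p = 0.00219) and Il13ra1, the interleukin-13 receptor chain, by 0.80 ± 0.15 SE (adjusted p = 0.00641). Osmr and Il6st were also called against PBS at 4 h, with 1.25 ± 0.26 SE and 0.90 ± 0.18 SE, beside 1.36% of all genes. Osmr was called at 2 h as well, with 1.40 ± 0.21 SE, beside 1.66% of all genes. In the 4 h pair test Osmr (1.20 ± 0.22 SE) and Il4ra (0.63 ± 0.15 SE) were called, beside 3.36% of all genes. The type I interferon receptor chains Ifnar1 and Ifnar2 gave -0.03 ± 0.07 SE and 0.13 ± 0.12 SE at 4 h. The list's median was 0.10.

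Of 20 negative regulators listed, 16 were measured. At 4 h, where 5.03% of all genes were called, 5 rose and 0 fell: Socs2, a feedback inhibitor of growth hormone signalling, by 3.06 ± 0.39 SE, Usp18, the ISG15 protease that dampens type I interferon signalling, by 2.16 ± 0.53 SE, Socs3, the inhibitor of gp130 signalling, by 1.50 ± 0.18 SE, and the phosphatases Ptpn1 by 1.04 ± 0.15 SE and Ptpn2 by 0.77 ± 0.16 SE. In the 4 h pair test Usp18 (3.62 ± 0.23 SE), Socs2 (2.08 ± 0.47 SE), Ptpn2 (0.83 ± 0.21 SE) and Ptpn1 (0.77 ± 0.19 SE) were called, and Socs3 gave 0.73 ± 0.26 SE (adjusted p = 0.157). Against PBS at 4 h, where 1.36% of all genes were called, 3 were called, Socs2 (3.44 ± 0.48 SE), Socs3 (1.11 ± 0.22 SE) and Ptpn1 (0.86 ± 0.18 SE). There Usp18 gave 2.23 ± 0.65 SE (adjusted p = 0.125) and Ptpn2 0.61 ± 0.20 SE (adjusted p = 0.177). The 4 h pair test called 3.36% of all genes. The list's median was 0.19 against all controls and 0.24 against PBS at 4 h.

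**Figure D5:**
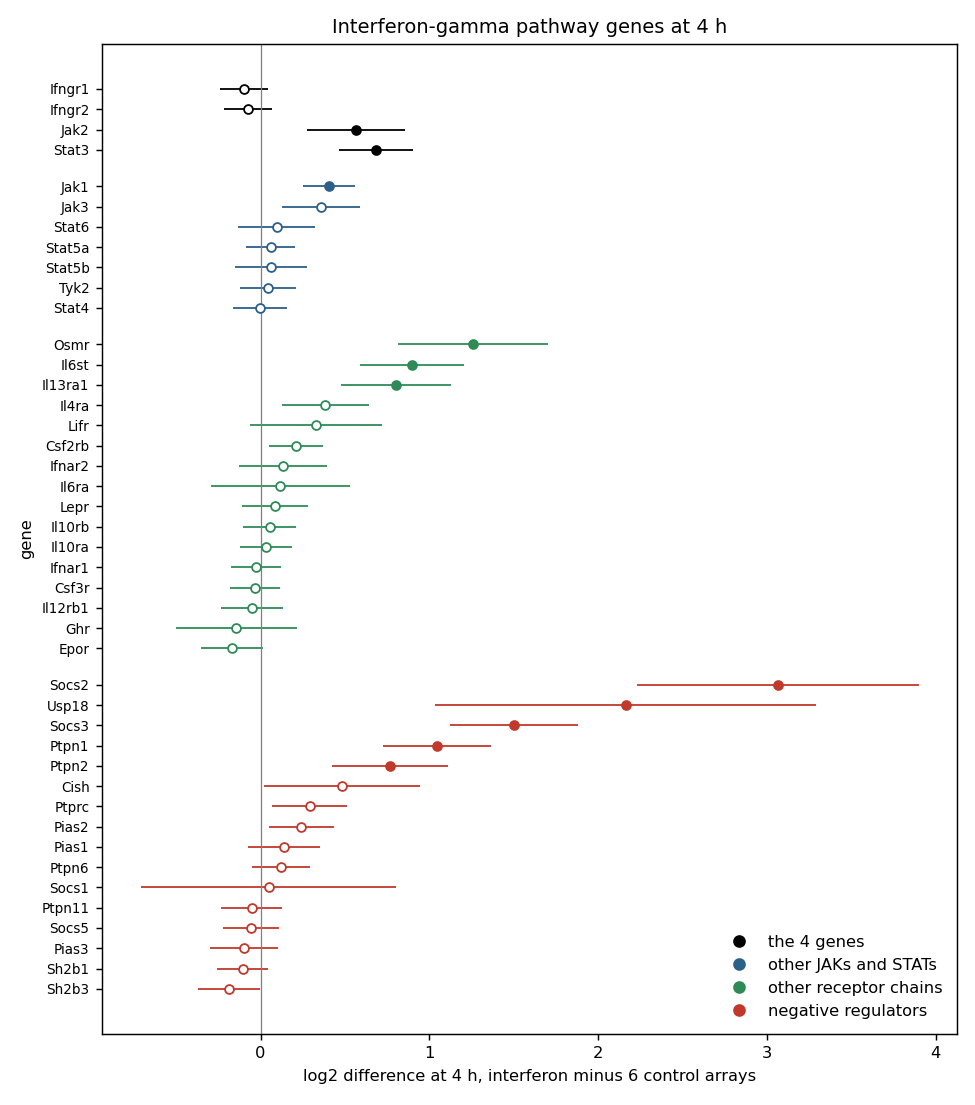
Log2 difference at 4 h (x axis), the mean of both genotypes minus the 6 control arrays, with 95% intervals, for the 4 genes and the measured members of 3 pathway lists (y axis); filled points passed an adjusted p of 0.05 over all genes. Both interferon-gamma receptor chains sit near 0, Jak1, Jak2 and Stat3 between 0.41 and 0.68, and Socs2 at 3.06 is the farthest right.

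Stat3 is known to drive a set of acute phase and feedback genes in liver. Of 30 listed Stat3 target genes in liver 29 were measured, and at 4 h, where 5.03% of all genes were called, 13 rose and 0 fell, with a median of 0.60. Against PBS at 4 h, where 1.36% were called, 6 rose and 0 fell, with a median of 0.41 (-0.02 over all genes). In PBS against untreated livers 0 of the 29 were called by limma, but 23 lay above 0, with a median of 0.29 (-0.03 over all genes). In the 4 h pair test, where 3.36% of all genes were called, 1 of these 29 was called, Il1rn, the interleukin-1 receptor antagonist. The list shares the arrays and controls of the 4 genes.

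The genes whose profile over the 22 arrays was most like each member were named by Pearson r, as a description; all points share the 2 genotypes and the same time course. For Jak2 they were Znfx1 (r = 0.94), Tbk1 (0.93) and G3bp2 (0.93), and without the 4 h pair these fell to 0.85, 0.84 and 0.82. For Stat3 they were Ptpn1 (0.93), Hspb8 (0.91) and Wars (0.90), and without the 4 h pair 0.85, 0.85 and 0.78. For Ifngr1 they were Inhba (0.71), Adarb1 (0.70) and Ptgfrn (0.70), and for Ifngr2 Ldb1 (0.83), Cdk16 (0.82) and Znhit2 (0.79). Between members, r was 0.76 for Jak2 with Stat3, 0.65 for Ifngr1 with Ifngr2 and -0.59 for Ifngr1 with Jak2.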

How the data were processed

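RNA was measured on Affymetrix 3-prime arrays, and the deposited values are log2 expression, 1 value per probe set, already normalized by the authors. The submitters' processing notes name affy. How background, normalization and summary were done is not given in the sources used here. Of 12488 probe sets 10833 carry 1 symbol in the platform's table. Array medians were 5.64 to 5.71, and the number of arrays limits the precision. Limma 3.58.1 in R 4.3.3 (lmFit, eBayes) fitted all 8251 genes. The response by time came from an additive model of condition and genotype (10 residual degrees of freedom). Phase responses came from 6 groups of genotype by phase (16), and genotype differences from the 11 within-condition pairs (8, or 9 for the 4 h pair against the others). The pairing is by treatment and time, not by animal, and the p-values reflect no more than the spread among these arrays, which may be technical. The fits were also run on simulated data with independent normal noise for each gene and array and known differences added. That simulation held no outlying array, so it could not test how the 4 h calls depend on single arrays. The members, lists and tests were chosen with earlier results of these data known. By the naming rule the text gives the 4 genes, fixed pathway genes (Jak1, Tyk2, Socs1, Socs3, Irf1; others on that list are not reported here), up to 4 called list members per comparison by size, and the 3 genes most alike; others named were chosen after their values were seen. Alternatives were other moderation, array weights, renormalization, a filter on dim genes, other controls, an unpaired fit and arrays left out.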

Additional observations from a re-analysis of the deposited data

Results flagged for a closer look

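Jak2 in IFNg-/- liver at 2 h, with 5.47, stood far above the other early IFNg-/- arrays, which had 5.03 at 0.5 h, 5.05 at 1 h and 5.09 at 4 h. The gap to the nearest array was 0.869 of the group's range, above Dixon's 95% critical value of 0.829 for 4 samples. These 4 arrays are different times, so the group holds the time course as well as the spread between samples. Of 16 groups of 4 arrays tested this was the only one past its critical value, and chance flags about 1 in 20 groups.

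The genotype difference of Jak2 in the 4 h pair exceeded that of the other 10 pairs by 0.83 on the log2 scale, with a limma adjusted p of 0.00112. Its second probe set, which is dimmer, gave 0.01.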

How the results depend on the processing

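Of the 4 genes, 2 were called at 4 h. With array weights there were 0, with dim genes left out 1 of 1 tested (only Stat3 passed that filter), without both PBS 12 h arrays 1, with the untreated arrays alone as controls 1, and with a condition pair or 1 interferon array left out 0 to 2. At 2 h 0 were called; with array weights there were 2 (Jak2 and Stat3), and leaving out a pair gave 0 to 1. At 12 h leaving out a pair gave 0 to 1. Against PBS at 4 h 1 was called, with array weights 0, with array medians centred 0, and with arrays left out 0 to 2; without the IFNg-/- 4 h array the 2 included Jak2 (0.97, adjusted p = 1.84e-05). In the F test 1 was called and with array weights 2. In the 4 h pair test 1 was called, and with dim genes left out 0 of 1 tested. The other 369 counts of called members were unchanged or within 1.5 times. Over all genes limma called 415 at 4 h and 137 at 2 h, and with array weights 84 and 420; at 4 h there were 60 without the SOCS1-/-IFNg-/- array and 813 without the IFNg-/- one, and the 4 h pair test called 188 to 358 over its alternatives. In the unpaired fit, with no replicate block, the genotype difference counts for the 4 genes were again 0. Of the 3 genes most like a member, Spearman's rho shared 1 for Ifngr1, 1 for Ifngr2, 0 for Jak2 and 1 for Stat3. The cause of these shifts was not tested.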
